A study of Mus musculus with 24 samples.

Results

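The collagen genes, which encode the chains of the collagens, were followed in left ventricular tissue of mice whose cardiomyocytes had lost the histone chaperone gene Hira. They were the probes whose annotated gene symbol is Col followed by a digit, 50 of the 26423 probes on the array. Of these, 48 probes stood for 42 collagen chain genes, among 17742 genes measured. The other 2 probes carry the old symbol COL4A3BP of Cert1, a ceramide transfer protein that is no collagen, and are left out of every count.

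Tissue came from the scar-free part of the left ventricular free wall of 4 Hira CKO and 4 control mice at 6 weeks of age, on a mixed C57BL6/J;129S1/SvImJ background. Hira CKO mice were aMHC-cre Tg/+; Hira flox/-, with 1 floxed and 1 deleted allele, and control mice were aMHC-cre Tg/+; Hira flox/+. The Cre transgene was thus present in both groups, and the cross also carried a Rosa26 YFP reporter of recombination. Cardiomyocytes of control mice should therefore also lose their floxed allele and keep 1 intact allele. The α-myosin heavy chain promoter drives Cre in cardiomyocytes, while most collagen of the heart is made by other cells in which the floxed allele should be intact, although Hira CKO mice lack the other allele in every cell. Each RNA was hybridized to 3 single-colour arrays, whose log2 values were averaged within the mouse.

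Collagens are secreted proteins built from chains wound into a helix, and they give the extracellular matrix of the heart its tensile strength. Fibrillar collagens of types I and III, made mainly by fibroblasts, form the fibres between the muscle layers and are the bulk of scar tissue. Type IV collagen forms the network of the basement membrane around cardiomyocytes and capillaries, and type VI forms beaded filaments that join that membrane to the fibres. Collagens are read out here as mRNA, which is not a measure of deposited protein.

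Values are intensities in linear units, background-subtracted and scaled by the authors so that each array has a median of 513.2. Genes were compared with limma on log2 intensity, 4 mice against 4, and called at an adjusted p under 0.05 (Benjamini-Hochberg over all 17742 genes). Hira itself was dim, at 228.2, 205.3, 200 and 167.5 in Hira CKO mice CKO_6300, CKO_6499, CKO_6672 and CKO_6707, against 208.8, 203.3, 250.2 and 253.8 in control mice control_6706, control_6299, control_6675 and control_6497 (log2 fold change −0.20, SE 0.12, adjusted p = 0.282). The position of its probe relative to the deleted exon is not given, so this value does not check the labels. Of the 10 cardiomyocyte markers, 5 were measured, and their summed intensity was 1322540 to 1522812 in Hira CKO and 1219024 to 1434815 in control mice. Mouse values are given below in the order just used for Hira.

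Few collagen genes passed the test. Of the 42, 1 (Col4a4) was called higher in Hira CKO mice, where 4.94% of all genes were called higher. Col22a1 and Col10a1 were called lower, against 9.65% of all genes called lower. The other 39 were not called. The 4 Hira CKO mice lay wholly above the 4 control mice in 2 collagen genes, Col4a4 and Col7a1 (7.78% of all genes), and wholly below in 3, Col22a1, Col10a1 and Col25a1 (15.6% of all genes). No share of called or non-overlapping collagen genes was above that of all genes. The median log2 fold change over the 42 genes was 0.06, with 25 higher and 17 lower means in Hira CKO, while the median over all genes was −0.14.

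**Figure D1:**
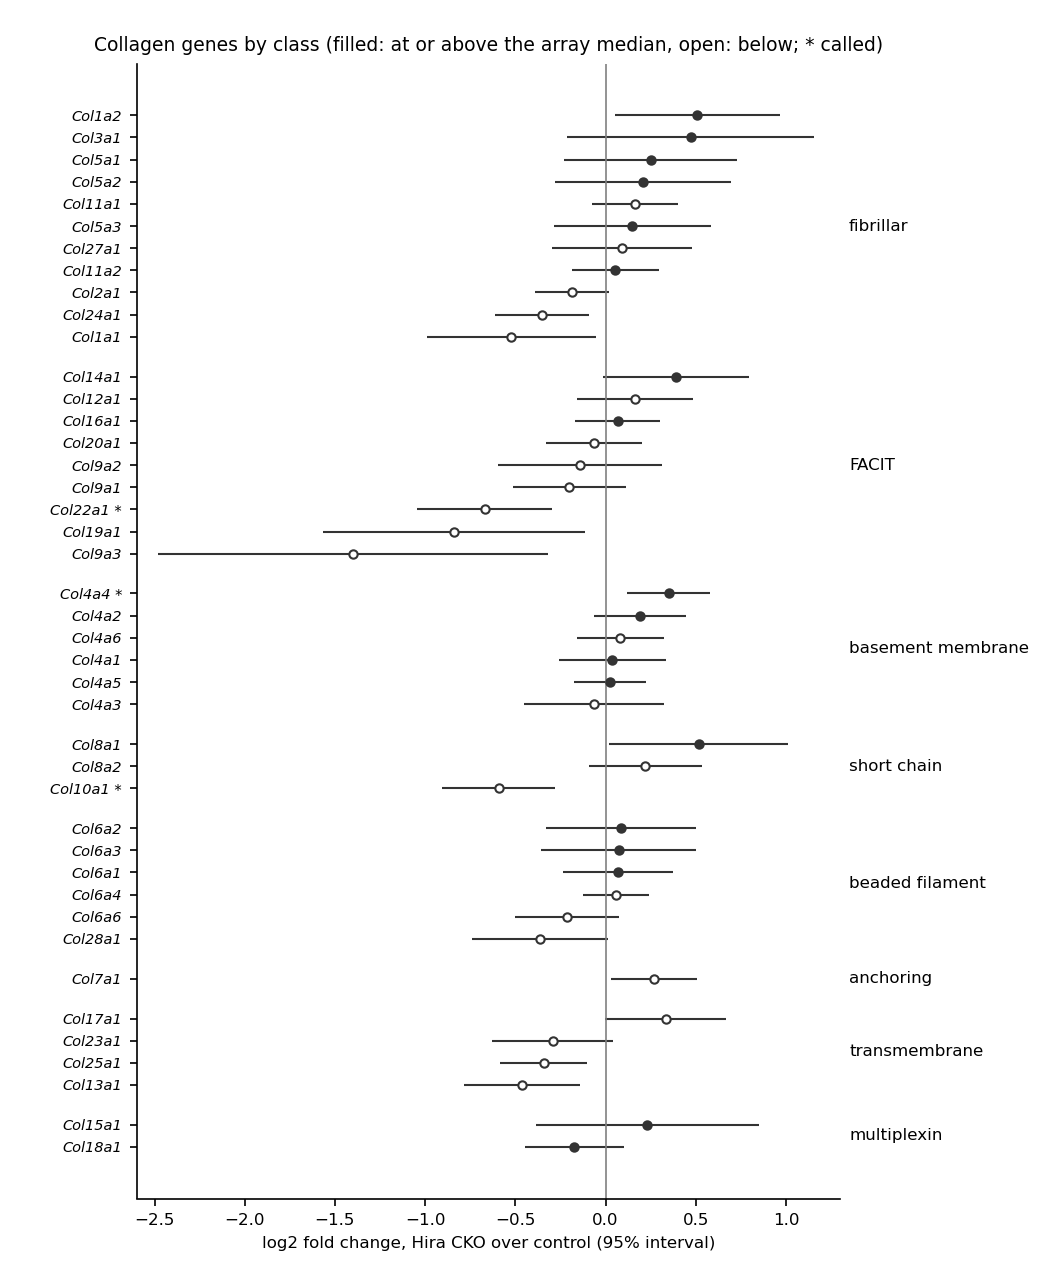
Log2 fold change of each collagen gene, Hira CKO over control, with its unadjusted 95% interval from limma (4 mice a group), grouped by class. Filled points are genes at or above the array median intensity of 513.2, open points are dimmer genes, and stars mark the 3 called genes. All filled points but Col18a1 lie right of 0.

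The genes divided by brightness. Of the 18 collagen genes at or above the array median, 17 had a higher mean in Hira CKO mice (median log2 fold change 0.17, range −0.17 to 0.52), with Col18a1 the exception. Among all 10509 genes of that brightness 4295 had a higher mean and the median was −0.06. Only Col4a4 of the 18 was called. The count of 17 was added after the data were seen. Mice of a group differed more in these 18 genes (median SD 0.284 on the log2 scale) than in all genes of that brightness (0.161). Of the 24 dimmer collagen genes, 16 had a lower mean (median −0.19), as did 80.5% of all 7233 dimmer genes (median −0.29). After quantile normalization, which gives every array the same distribution, 17 of the 18 brighter genes still had the higher mean in Hira CKO (median 0.21, all genes of that brightness −0.02), while the dimmer genes split 13 lower and 11 higher (median −0.03). The low end of the arrays differed with the groups: the 5th percentile of intensity was 38.72, 21.04, 18.08 and 17.37 in Hira CKO mice, against 34.71, 54.8, 39.21 and 43.14 in control mice. Its part in the dim values was not tested.

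**Figure D2:**
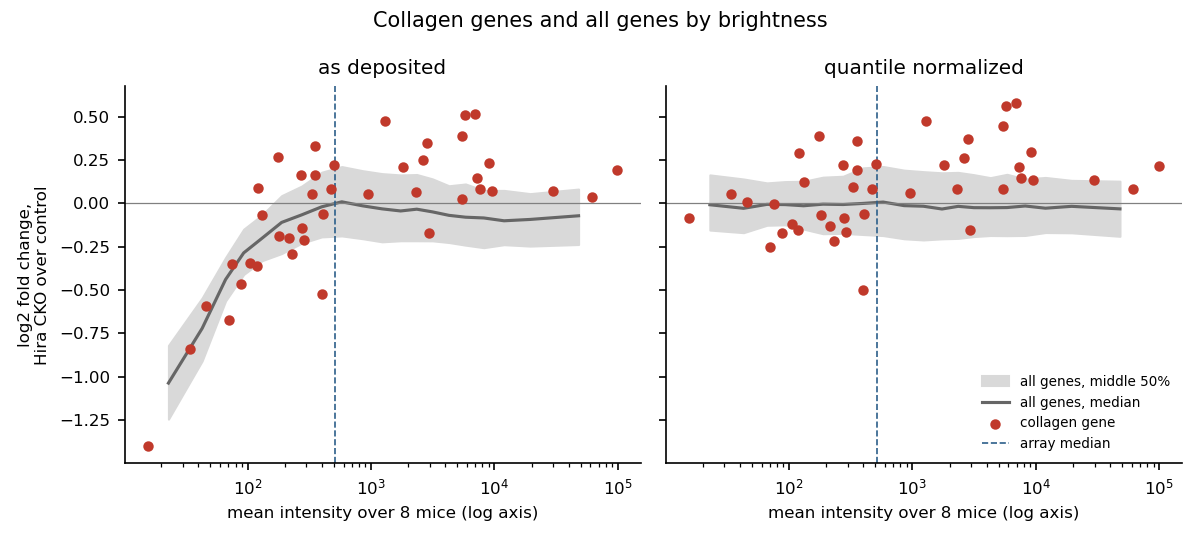
Log2 fold change, Hira CKO over control, against geometric mean intensity over the 8 mice (log axis), for values as deposited and after quantile normalization. Red points are the 42 collagen genes, the grey line and band are the median and the middle of all genes in bins of brightness, and the dashed line is the array median. The downturn of dim genes in the deposited values, collagen genes included, is absent after quantile normalization, while 17 of the 18 brighter collagen genes lie above 0 in both.

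None of the 11 fibrillar collagen genes was called, and 8 had a higher mean in Hira CKO. Col1a2 encodes the α2 chain of type I collagen. Its intensity was 6996, 5082, 8225 and 7469 in Hira CKO mice, against 4612, 6710, 3849 and 4461 in control mice (log2 fold change 0.51, SE 0.20, adjusted p = 0.106). Hira CKO mice other than CKO_6499 were above every control mouse, and the groups overlapped through mouse CKO_6499 and mouse control_6299. Col3a1, the single chain of type III collagen, which is prominent in distensible tissue and early scars, had 1594, 991.5, 2170 and 1608 in Hira CKO mice, against 868.5, 1925, 973.3 and 915.7 in control mice (log2 fold change 0.47, SE 0.30, adjusted p = 0.281). All Hira CKO mice exceeded 3 of the control mice, and mouse control_6299 stood inside the range of the Hira CKO group.

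Col1a1, the α1 chain that pairs with Col1a2 in type I collagen, had the opposite sign. It was dim, at 425.3, 287.4, 284.5 and 352.8 in Hira CKO mice, against 423.7, 690.3, 477.1 and 373.7 in control mice (log2 fold change −0.52, SE 0.21, adjusted p = 0.107, and 0.0407 with neighbouring mouse numbers as a block, a pairing that is not in the labels). Its 95% interval lay below 0 (−0.99 to −0.05) and that of Col1a2 above (0.05 to 0.97), both without adjustment. The change of Col1a1 minus that of Col1a2 was −1.03, and no Hira CKO mouse overlapped a control mouse in this difference (2-sided exact permutation test, p = 0.0286, the smallest that 4 against 4 allows, and 0.257 after adjustment over the 9 gene pairs compared). Both genes have 1 probe, and the probes' positions were not given. Mean intensity was 398.8 for the Col1a1 probe and 5729 for that of Col1a2, and how well each reports its transcript was not tested.

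Type V collagen regulates the diameter of type I fibrils, and its 3 genes had higher means in Hira CKO. Col5a1 had 3209, 2204, 3306 and 2915 in Hira CKO mice, against 2000, 3650, 2098 and 2224 in control mice (log2 fold change 0.25, SE 0.21, adjusted p = 0.411). Col5a2 had 1549, 2046, 2832 and 1575 in Hira CKO mice, against 1498, 2226, 1614 and 1479 in control mice (log2 fold change 0.21, adjusted p = 0.510). Col5a3 had 8575, 6166, 6711 and 9744 in Hira CKO mice, against 5360, 8894, 6624 and 7268 in control mice (log2 fold change 0.15, adjusted p = 0.601). The groups overlapped in all 3, and mouse control_6299 was the highest control mouse in each. The remaining fibrillar genes, Col2a1, Col11a1, Col11a2, Col24a1 and Col27a1, whose best known places are cartilage and developing bone, had log2 fold changes between −0.35 (Col24a1) and 0.16 (Col11a1). All but Col11a2 were below the array median.

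Col8a1 had the largest positive difference of the 42. It encodes a short chain collagen of vessel walls and other subendothelial matrix, with 10315, 5847, 10273 and 7554 in Hira CKO mice, against 4821, 6375, 7476 and 4853 in control mice (log2 fold change 0.52, SE 0.22, adjusted p = 0.125, and 0.0347 with neighbouring mouse numbers as a block). All Hira CKO mice but CKO_6499 were above every control mouse. Its partner Col8a2 was near the array median (log2 fold change 0.22, adjusted p = 0.273), and the difference between the changes of the 2 genes, 0.30, did not pass (2-sided exact permutation test, p = 0.2).

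**Figure D3:**
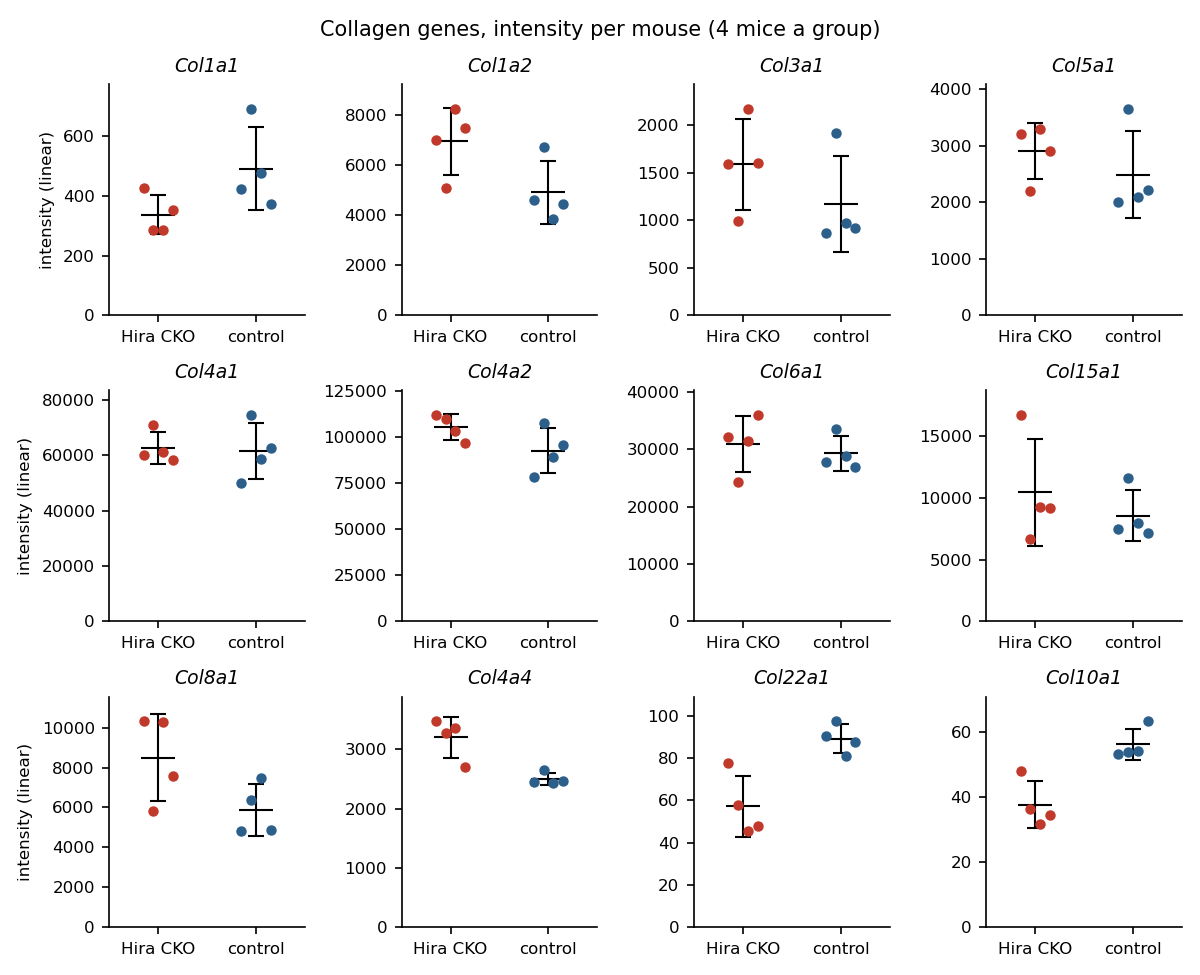
Intensity (linear axis from 0) of 12 collagen genes in each mouse, 4 Hira CKO mice at left and 4 control mice at right. Bars show mean and SD. Col1a2, Col3a1, Col5a1 and Col8a1 overlap between the groups, Col4a4 lies higher and Col22a1 and Col10a1 lie lower in all 4 Hira CKO mice, and mouse control_6299 is the highest control in Col1a1, Col1a2, Col3a1, Col5a1, Col4a1, Col4a2, Col6a1 and Col15a1.

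Col8a1, Col1a2 and Col3a1 had the largest positive differences, and the 150 bases before the transcript start of each are shown for the promoter elements they hold, from RefSeq on GRCm38.p6, 5′ to 3′ on the gene's strand. The windows are chr16:57754738-57754887 (minus strand) for Col8a1, chr6:4505468-4505617 (plus strand) for Col1a2 and chr1:45311388-45311537 (plus strand) for Col3a1. Capitals mark the motifs searched on both strands, the CCAAT box (CCAAT), the GC box (GGGCGG) and the TATA box (TATAAA).
Col8a1: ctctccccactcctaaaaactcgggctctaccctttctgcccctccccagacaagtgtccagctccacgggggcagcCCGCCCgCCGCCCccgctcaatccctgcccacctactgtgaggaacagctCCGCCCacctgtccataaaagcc
Col1a2: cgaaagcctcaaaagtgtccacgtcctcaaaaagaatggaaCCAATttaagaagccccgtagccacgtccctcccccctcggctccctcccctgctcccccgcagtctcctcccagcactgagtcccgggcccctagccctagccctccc
Col3a1: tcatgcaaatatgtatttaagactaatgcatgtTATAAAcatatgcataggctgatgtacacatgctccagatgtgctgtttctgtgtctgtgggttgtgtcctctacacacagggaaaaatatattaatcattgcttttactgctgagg
The Col8a1 window holds 3 GC boxes, the Col1a2 window 1 CCAAT box and the Col3a1 window 1 TATA box, so the 3 share none of these elements here. Over the 250 bases before the start, a CCAAT box was in 13 of 37 windows of collagen genes (35.1%, against 33.8% of 32851 windows of all genes), a GC box in 21 (56.8%, against 32.7%) and a TATA box in 5 (13.5%, against 12.4%). The 37 windows belong to 34 collagen genes, since some genes have several starts. A match is a description of the letters and not a bound site.

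Among the 6 type IV collagen genes of the basement membrane, Col4a4 was called. Its brightest probe had 3474, 3282, 3354 and 2706 in Hira CKO mice, against 2455, 2660, 2431 and 2473 in control mice (1.27-fold, log2 fold change 0.35, SE 0.10, adjusted p = 0.0495). Every Hira CKO mouse was above every control mouse, by a small margin for mouse CKO_6707. The other 2 probes of Col4a4 were dim and did not show this. The first had 91.63, 80.43, 129.2 and 74.05 in Hira CKO mice, against 122.5, 178, 131.2 and 100.6 in control mice (log2 fold change −0.51), and the other averaged 138.8 in Hira CKO and 136.6 in control mice (log2 fold change 0.04). With the mean of the 3 probes, the log2 fold change of Col4a4 was −0.04, and with every probe tested the adjusted p of the brightest was 0.0512. The call was also lost when any 1 of 7 mice was left out, mouse CKO_6707 being the exception.

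The chains of the α1 and α2 network, common to nearly all basement membranes, did not differ beyond the spread of the mice. Col4a1 had 60018, 70999, 61143 and 58390 in Hira CKO mice, against 50086, 74495, 58679 and 62513 in control mice (log2 fold change 0.04, 95% interval −0.26 to 0.34, adjusted p = 0.857). Col4a2, its head-to-head neighbour on chromosome 8, had 112087, 109873, 103736 and 96767 in Hira CKO mice, against 78503, 107687, 89588 and 95874 in control mice (log2 fold change 0.19, adjusted p = 0.243). The groups overlapped in both genes. Col4a3 and Col4a4, likewise head to head, had log2 fold changes of −0.06 and 0.35, and their difference was within the spread of the mice (2-sided exact permutation test, p = 0.114). Col4a5 and Col4a6 on the X chromosome had 0.03 and 0.08.

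Type VI collagen, the beaded filament around muscle cells, showed no difference beyond the spread of the mice. Col6a1 had 32129, 24277, 31364 and 35924 in Hira CKO mice, against 27801, 33546, 28889 and 26833 in control mice (log2 fold change 0.07, 95% interval −0.24 to 0.38, adjusted p = 0.730). Col6a2 had 8881, 5840, 7425 and 9659 in Hira CKO mice, against 7662, 9058, 7115 and 5953 in control mice (log2 fold change 0.08, adjusted p = 0.761). Col6a3 had 11258, 6607, 10057 and 11941 in Hira CKO mice, against 7814, 10532, 9486 and 9327 in control mice (log2 fold change 0.07, adjusted p = 0.802). In all 3 genes mouse CKO_6499 was the lowest of the 8 and mouse CKO_6707 the highest. The dimmer members Col6a4, Col6a6 and Col28a1 had log2 fold changes of 0.06, −0.21 and −0.36, none called.

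The 2 multiplexins, basement membrane collagens whose cleaved ends are endostatin-like fragments, differed in sign. Col15a1 had 16650 in mouse CKO_6300, 9240 in CKO_6672, 9155 in CKO_6707 and less in CKO_6499, with a mean of 10429, against 7495, 11595, 7970 and 7114 in control mice (log2 fold change 0.23, SE 0.27, adjusted p = 0.560). Mouse CKO_6300 weighed on that difference: without it the log2 fold change of Col15a1 took the lowest value of any alternative, −0.02. Col18a1 had 2600, 2577, 3198 and 2774 in Hira CKO mice, against 3088, 3561, 3319 and 2627 in control mice (log2 fold change −0.17, SE 0.12, adjusted p = 0.323).

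The called lower genes were both dim. Col22a1, a fibril-associated collagen of tissue junctions such as that of muscle and tendon, had 77.53, 57.65, 45.58 and 48.09 in Hira CKO mice, against 90.51, 97.42, 81.12 and 87.78 in control mice (log2 fold change −0.67, SE 0.17, adjusted p = 0.0327). Col10a1, the collagen of hypertrophic cartilage, had 48.07, 36.49, 31.72 and 34.52 in Hira CKO mice, against 53.4, 53.99, 54.31 and 63.42 in control mice (log2 fold change −0.59, SE 0.14, adjusted p = 0.0268). The groups did not overlap in either, and neither stayed called when any mouse but CKO_6300 was left out. After quantile normalization neither was called, with log2 fold changes of −0.25 for Col22a1 (adjusted p = 0.10) and 0.01 for Col10a1 (adjusted p = 0.983).

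Among the other fibril-associated collagens, Col14a1, which binds the surface of fibrils, averaged 6344 ± 1553 in Hira CKO and 4759 ± 560.3 in control mice (SD, n = 4 each; log2 fold change 0.39, adjusted p = 0.149 by limma). Col12a1 and Col16a1 had 0.16 and 0.07, and the dim Col9a1, Col9a2, Col9a3, Col19a1 and Col20a1 lay between −1.40 (Col9a3) and −0.07 (Col20a1). In Col9a3, 1 Hira CKO and 1 control array were at the floor of 1 set for low values, as was 1 Hira CKO array in Col19a1. After quantile normalization Col9a3 had −0.09 and Col19a1 0.05. Col7a1, which builds the anchoring fibrils below epithelia, had all 4 Hira CKO mice above the control mice at 210.6, 214.1, 173.1 and 180.2, against 144.1, 168.4, 166.3 and 165.9 in control mice (log2 fold change 0.27, adjusted p = 0.106). It was the 1 collagen gene called after quantile normalization (log2 fold change 0.39, adjusted p = 0.0187). The 4 transmembrane collagens were all below the array median, Col17a1 at 0.33 and Col13a1, Col23a1 and Col25a1 at −0.46, −0.29 and −0.34, none called.

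The same mice recurred at the ends of the brighter genes. Mouse control_6299 was the highest control mouse in 14 of the 18, as against 12.8% of all genes at or above the array median. Mouse CKO_6499 was the lowest Hira CKO mouse in 13 of the 18, as against 34.2% of all such genes. Among the 24 dimmer genes mouse CKO_6300 was the highest of its group in 14, and in 67.2% of all dimmer genes. Without mouse CKO_6300, 7 collagen genes were called lower (Col9a3, Col10a1, Col13a1, Col19a1, Col22a1, Col24a1 and Col25a1), all dim, and 20.1% of all genes were then called lower. With any other mouse left out, no collagen gene was called lower.

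The genes that make, assemble, bind and remove collagen are read against the same 4.94% of all genes called higher and 9.65% called lower, and a count of 1 in a list of this size does not stand apart from those shares. Of 22 genes for hydroxylation, glycosylation, folding and export of procollagen, 1 was called lower and none higher. That gene was Mia3, which loads bulky cargo such as procollagen at endoplasmic reticulum exit sites, at 165.4, 117.3, 125.8 and 143 in Hira CKO mice, against 181.4, 189.2, 174.8 and 204.2 in control mice (log2 fold change −0.45, adjusted p = 0.0413, and 0.0757 after quantile normalization). Of 16 genes for cleavage and cross-linking of procollagen none was called. The closest was Pcolce, the enhancer of C-propeptide cleavage, at 16011, 20729, 18290 and 22805 in Hira CKO mice, against 16053, 14157, 14421 and 11588 in control mice (log2 fold change 0.47, adjusted p = 0.0560). It passed after quantile normalization (adjusted p = 0.0226). Mouse CKO_6300 was just below the highest control mouse, and the other Hira CKO mice were above all control mice. Tll2, a tolloid protease, was dim (log2 fold change −1.12, adjusted p = 0.0574, and −0.25 after quantile normalization).

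Of 15 fibril-binding proteoglycans and adaptors, 1 was called lower, and of 12 collagen receptors 1, the dim Kera (keratocan; log2 fold change −0.76, adjusted p = 0.0413) and Itga2 (integrin α2; log2 fold change −1.32, adjusted p = 0.0365). After quantile normalization neither was called, with log2 fold changes of −0.01 for Kera and −0.18 for Itga2.

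Among 8 proteases that act on collagen, Ctsk and Fap were called, in opposite directions. Ctsk, cathepsin K, which cuts within the collagen helix, had 4736, 4496, 6513 and 5187 in Hira CKO mice, against 1433, 1385, 1548 and 1217 in control mice (log2 fold change 1.90, SE 0.13, adjusted p = 0.000147). Its lowest Hira CKO mouse was far above its highest control mouse, and it was called under all 22 alternatives. Fap, fibroblast activation protein, which trims cleaved collagen, had 1795, 1849, 2054 and 1810 in Hira CKO mice, against 2566, 2736, 2513 and 2243 in control mice (log2 fold change −0.42, SE 0.09, adjusted p = 0.0240). The groups did not overlap, and the call of Fap held in 17 of 22 alternatives, being lost with control_6706, control_6299, control_6675, CKO_6499 or CKO_6707 left out (adjusted p at most 0.0692). The matrix metalloproteinases of the list were not called.

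**Figure D4:**
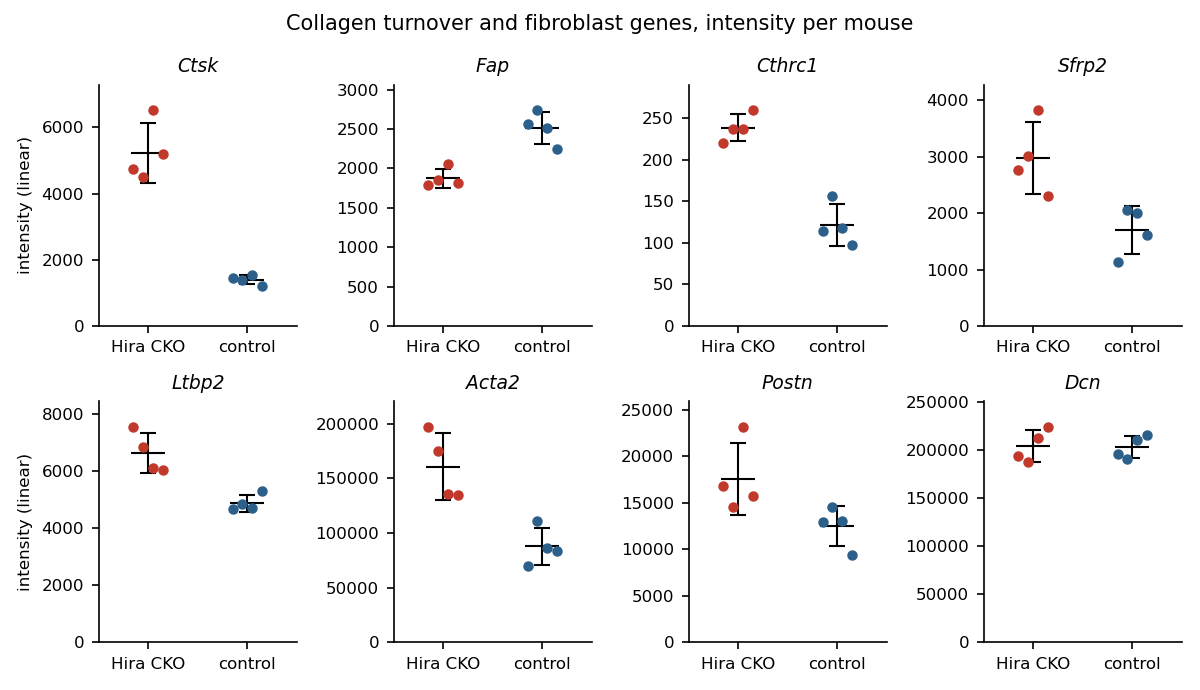
Intensity (linear axis from 0) in each mouse of 2 collagen-degrading proteases (Ctsk, Fap), 5 genes of the activated fibroblast list and Dcn, a fibroblast proteoglycan. The 4 Hira CKO mice are at left and the 4 control mice at right. Bars show mean and SD. Ctsk, Cthrc1, Sfrp2, Ltbp2 and Acta2 lie higher and Fap lower in all 4 Hira CKO mice, Postn overlaps at one end, and Dcn overlaps between the groups.

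Markers of the cells that make collagen split. Of 10 markers of activated fibroblasts, 4 were called higher in Hira CKO, where 4.94% of all genes were called higher. Cthrc1, a secreted protein of collagen-producing cells in scars, had 219.6, 237.4, 237.1 and 259.3 in Hira CKO mice, against 113.8, 156.4, 117.4 and 96.9 in control mice (log2 fold change 0.996, adjusted p = 0.00450). Acta2, smooth muscle α-actin, which other cells express too, was higher by 0.87 on the log2 scale (adjusted p = 0.0166), Sfrp2 by 0.82 (adjusted p = 0.0408) and Ltbp2 by 0.44 (adjusted p = 0.0253). The paper found smooth muscle α-actin protein in cardiomyocytes of Hira CKO hearts, so Acta2 does not single out fibroblasts here. Postn, periostin, averaged 17561 in Hira CKO and 12489 in control mice (log2 fold change 0.49, adjusted p = 0.0918). The summed intensity of the 10, of which Acta2 is the greater part, was 165407 to 230147 in Hira CKO and 94446 to 138569 in control mice. Of 10 markers of cardiac fibroblasts none was called (median log2 fold change 0.00), with sums of 474489 to 551928 in Hira CKO and 499383 to 524258 in control mice. In tissue RNA, fewer cells of a type and less RNA per cell cannot be told apart.

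Other cell types that make collagen differed as follows, read against the same 4.94% of all genes called higher and 9.65% called lower. A lower mean in Hira CKO was itself common, in 12033 of all 17742 genes and in 59.1% of those at or above the array median. None of 10 endothelial markers was called, though 9 had lower means in Hira CKO and the sums did not overlap (155540 to 176420 in Hira CKO, 183124 to 201790 in control mice). The median log2 fold change of these markers was −0.22, and −0.155 after quantile normalization. Upk3b and Upk1b, of 6 epicardial and mesothelial markers, were called lower (log2 fold changes −1.02 and −0.63), with sums of 7093 to 9535 in Hira CKO and 11053 to 13084 in control mice. Of 8 smooth muscle and pericyte markers Acta2 was called higher, while the other 7 had lower means in Hira CKO and were not called (median of the list −0.34). The sums were 217509 to 286974 in Hira CKO and 175784 to 217998 in control mice. Acta2 gave more to them than any other gene, and in Hira CKO mice the greater part. Of 9 macrophage markers Cd68 was called higher (log2 fold change 0.70), while the other 8 had lower means and were not called (median −0.20), with sums of 52808 to 90987 in Hira CKO and 65267 to 98800 in control mice. Of 3 Schwann cell markers Mbp was called higher (0.89), but not with the mean of its probes (0.27). Sox10 (0.24) and Pmp22 (−0.24) were not called, and the sums were 22425 to 32587 in Hira CKO and 27358 to 32685 in control mice. Pmp22 gave the greater part of each sum. Of 8 cartilage and bone markers Ihh and Runx2 were called lower, with sums of 11543 to 13354 in Hira CKO and 13707 to 17081 in control mice. Runx2 gave the greater part of each sum. Of the 8, 6 were below the array median, as was Col10a1, but Runx2 was bright. After quantile normalization Ihh was still called (log2 fold change −0.354) and Runx2 was not (−0.285). None of 3 skeletal muscle markers was called, with sums of 31430 to 156199 in Hira CKO and 20941 to 44817 in control mice. Acta1 (log2 fold change 0.90, adjusted p = 0.219 by limma) gave most of each sum, so the sums follow that gene. Tnni2 had −0.39 and Tnnt3 0.13. Of 22 alternatives, the call was lost in 14 for Mia3, 13 for Runx2, 11 for Upk1b, 9 for Sfrp2, 7 for Cd68, 5 for Ltbp2 and 1 each for Acta2, Mbp and Ihh. For the dim Kera and Itga2 it was lost in 17 and 14 of the 21 alternatives that held them. The part of these cells in the collagen values was not tested.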

How the data were processed

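Total RNA of 8 ventricles was measured on 24 arrays, 3 for each mouse. The authors deposited linear intensity values, median scaled, with values below 0 from background subtraction (0 to 2429 probes of an array). The background method and image software are not given in the sources used here. Label fields conflict on which dye was used.

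Values under 1 were raised to 1 and taken to log2, the 3 arrays of a mouse were averaged, and the probe with the highest mean stood for each gene. Symbols were updated through the RefSeq table of GRCm38. Groups were compared in limma 3.58.1 (R 4.3.3, lmFit and eBayes) with Benjamini-Hochberg adjustment, and gene pairs with exact permutation tests. The fit was tested on simulated data. Python 3.11.15, pandas 2.3.3 and matplotlib 3.10.9 were used for gene names and plots. Sex is not in the labels. The number of mice, 4 a group, limits the precision.

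Values per mouse were given for called collagen genes, the 8 brightest and a set of cardiac chains, and for list genes by smallest p. Values for Col7a1, Col14a1 and the second probes of Col4a4, and the marker Postn, were chosen after their values were seen. The members, gene lists and alternatives were chosen with earlier results of these data known.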

Additional observations from a re-analysis of the deposited data

Results flagged for a closer look

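Of 138 groups of 4 mice examined, over collagen genes and the named genes of the other lists, 12 held a mouse whose gap to its nearest neighbour was a share of the group's range above Dixon's 95% critical value, which chance gives in about 1 group in 20. The brighter collagen genes with such a mouse were Col3a1, where mouse control_6299 had an intensity of 1925 and the other control mice had 868.5 to 973.3, and Col5a1, where the same mouse had 3650 and the others had 2000 to 2224. Mouse CKO_6300 stood above its group in 3 dim genes, with 81.91 in Col24a1, 133.7 in Col28a1 and 27.44 in Col9a3. Other Hira CKO mice stood above their group in Col2a1 (mouse CKO_6499, 186.2) and Col4a3 (mouse CKO_6672, 506.1). Control mice stood apart in Col10a1 (mouse control_6497, 63.42), Col20a1 (mouse control_6706, 157.7) and Col7a1 (mouse control_6706, 144.1, below the others). Outside the collagen genes, mouse CKO_6707 had 2264 for Tnni2 and mouse control_6706 had 9034 for Pecam1, each above its group.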

How the results depend on the processing

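Collagen genes called were 1 higher and 2 lower as reported. The lower count was 0 after quantile or cyclic loess normalization and with dim genes left out, and 1 with an intensity trend and robust prior. The higher count was 0 with a gene's probes averaged and with every probe tested. The methods' t-test on mice with Benjamini-Hochberg adjustment called 0 higher and 0 lower, and an adjusted p under 0.01 gave 0 and 0. An adjusted p under 0.10 gave 1 higher and 7 lower, where 8.01% of all genes were higher and 21% lower. The methods' thresholds were a change of 1 or more on the log2 scale in either direction, with p under 0.05 before adjustment. They gave 0 higher and 1 lower, Col9a3, where 3.87% of all genes were lower. Fits on single arrays with the mouse as a random block called 5 higher and 2 lower, where 8.2% of all genes were higher and 13.6% lower. With the array number as a replicate block as well, 4 were higher and 1 lower (all genes 7.98% and 13%). Col1a2 and Col8a1 were higher and Col1a1 lower in both. These fits take 1 correlation between the arrays of a mouse for all genes. Mice of a group differed more than arrays of a mouse in Col8a1 (SD 0.355 against 0.162) and Col1a1 (0.333 against 0.149). For such genes arrays count in part as replicates, and the adjusted p can be too small. Array numbers do not pair mice. Neighbouring mouse numbers as a block, a pairing that the labels do not state, gave 4 lower, Col1a1 among them, and 1 higher, which was Col8a1 and not Col4a4. Of all genes, 11.1% were then lower and 4.68% higher. With 1 mouse or 1 array of each mouse left out, the higher count was 0 to 1 and the lower count 0 to 7. It was 7 only without mouse CKO_6300, where 20.1% of all genes were lower. Among called genes, the sign turned for Col10a1 after quantile (0.00524) and cyclic loess normalization (0.0137), and for Col4a4 with the mean of its probes (−0.0405). It also turned in 10 values, all from leaving out a mouse or array, of 5 genes that were never called, to as low as −0.0553 in Col4a1, −0.0251 in Col6a3, −0.0198 in Col15a1, −0.0174 in Col6a2 and −0.00643 in Col6a1. The cause was not tested. The number of brighter collagen genes with a higher mean, a count added after seeing the data, was 14 to 17 of 18 throughout. Of 372 values of named collagen genes, 320 kept their side of the threshold without a call turning, and 310 of these kept their sign. Most of the 320 were of genes that were not called as reported. The calls themselves were mostly lost: they held in 6 of 21 alternatives for Col10a1, 8 of 21 for Col22a1 and 6 of 22 for Col4a4. An offset of 50 changed neither count.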

Other observations

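Col26a1 and Col6a5 were annotated under the old symbols EMID2 and GM7455, and so fall outside the symbol rule. Col26a1 averaged 102.3 ± 21.54 in Hira CKO and 126.5 ± 33.63 in control mice (SD, n = 4 each; limma, log2 fold change −0.29, adjusted p = 0.351). Col6a5 was close to background, at 21.12, 10.27, 5.98 and 3.18 in Hira CKO mice, against 23.63, 14.82, 12.41 and 26.66 in control mice (log2 fold change −1.20, adjusted p = 0.137). Cert1, which the symbol rule takes in although it is no collagen, had log2 fold changes of −0.11 and −0.29 for its 2 probes.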
